A study of Mus musculus with 8 samples.

Results

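The 9 genes described here control where and how the bone matrix mineralises: Alpl, Phospho1, Enpp1, Ank, Slc20a1, Slc20a2, Phex, Sost and Fgf23. They were taken by symbol from the 32285 features of the series, and all 9 were found, each as 1 feature. Mineral forms where phosphate is plentiful and inorganic pyrophosphate, which blocks crystal growth, is removed. Tissue-nonspecific alkaline phosphatase (Alpl) breaks pyrophosphate down and PHOSPHO1 frees phosphate inside matrix vesicles, whereas the ectoenzyme ENPP1 makes pyrophosphate and ANK promotes its release from the cell. The transporters encoded by Slc20a1 and Slc20a2 carry phosphate into cells. Osteocytes, the osteoblasts that become buried in bone, express the endopeptidase PHEX, the Wnt inhibitor sclerostin (Sost) and the phosphate-wasting hormone FGF23.

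Nuclei were sequenced from the petrous temporal bone (PTB), the part of the skull around the inner ear, and from the paraflocculus and flocculus (PF/F), the cerebellar lobules next to it, of P5.5 mice. WT littermates were compared with Tbx1+/- mice, which lack 1 copy of the T-box factor gene Tbx1 in every cell, on a C57BL/6J background and in both sexes. Each tissue had 2 WT and 2 Tbx1+/- libraries, 1 of each genotype in each of 2 batches, and each library pooled 5 mice, so the library was the replicate. Both tissues were frozen, and only the bone was pulverised before the nuclei were freed. Values per library are given in the order WT batch 1, Tbx1+/- batch 1, WT batch 2, Tbx1+/- batch 2. A level in CPM is the number of unique molecular identifiers (UMIs) of a gene per 1000000 UMIs of the nuclei that were summed.

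The 4 PTB libraries held 66835028 to 88677309 UMIs in 11906 to 21868 barcodes, and 31076 of the 63177 PTB barcodes carried 1 of 15 cell type names from the authors. Pairs of PTB libraries shared 45 to 82 barcodes, at most 0.601% of the smaller library. Tbx1 stood at 39.3, 27.6, 46.3 and 40.1 CPM over all PTB barcodes and was lower in Tbx1+/- than in WT in each batch. Which part of the gene the allele lacks is not given in the sources used here, so this is no full check of the labels. The type named matured osteoblasts/osteocyte had the highest levels of the osteocyte genes Dmp1 (1761 CPM), Mepe (191 CPM) and Pdpn (193 CPM). The type named hypertrophic chondrocyte/osteoblasts had the highest Mmp13 (1923 CPM) and Spp1 (4827 CPM), but Col10a1 (42.4 CPM) and Ihh (1.90 CPM), both defining genes of hypertrophic cartilage, were higher in matured chondrocytes (192 and 50.8 CPM). The name is therefore used below only as a label. The WT batch 1 library stood apart in osteoblast markers: the 7 genes summed to 36859 CPM in its matured osteoblasts and to 17233 to 19527 CPM in the other three. The authors' correction for free RNA is not in the deposited counts, so osteoclasts, which come from blood and should lack Alpl, Phospho1, Phex, Sost and Fgf23, served as the reference for free RNA.

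Promoter sequence was available for 8 of the 9 genes, as the 250 bases before the RefSeq start on GRCm38.p6. Alpl and Enpp1 are shown as the enzymes that remove and make pyrophosphate, and Phex, Sost and Fgf23 as the osteocyte genes. Each is read 5′ to 3′ in the direction of the gene. Capitals mark the RUNX core, searched as TGTGGT on both strands (ACCACA when read from the other strand), or the string TTTAAAA on the strand of the gene.
Alpl, chr4:137796385-137796634, minus strand: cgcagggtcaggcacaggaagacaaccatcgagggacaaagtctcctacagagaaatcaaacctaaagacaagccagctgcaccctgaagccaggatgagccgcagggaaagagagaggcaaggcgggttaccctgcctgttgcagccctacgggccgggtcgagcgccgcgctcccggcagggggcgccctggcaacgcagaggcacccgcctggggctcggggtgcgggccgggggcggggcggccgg
Enpp1, chr10:24712160-24712409, minus strand: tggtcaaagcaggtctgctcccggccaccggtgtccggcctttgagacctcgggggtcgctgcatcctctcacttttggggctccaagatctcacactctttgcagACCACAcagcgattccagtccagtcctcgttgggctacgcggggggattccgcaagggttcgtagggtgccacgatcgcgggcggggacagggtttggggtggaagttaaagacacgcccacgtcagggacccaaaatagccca
Phex, chrX:157415287-157415536, minus strand: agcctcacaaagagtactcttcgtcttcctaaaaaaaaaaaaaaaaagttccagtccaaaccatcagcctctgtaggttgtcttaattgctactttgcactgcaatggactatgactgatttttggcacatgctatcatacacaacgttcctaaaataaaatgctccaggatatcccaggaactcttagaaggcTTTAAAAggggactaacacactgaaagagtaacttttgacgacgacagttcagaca
Sost, chr11:101967016-101967265, minus strand: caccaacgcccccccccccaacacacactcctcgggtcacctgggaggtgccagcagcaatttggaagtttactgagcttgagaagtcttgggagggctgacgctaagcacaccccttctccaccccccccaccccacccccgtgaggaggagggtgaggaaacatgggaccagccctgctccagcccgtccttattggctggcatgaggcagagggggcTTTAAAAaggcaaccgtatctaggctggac
Fgf23, chr6:127072652-127072901, plus strand: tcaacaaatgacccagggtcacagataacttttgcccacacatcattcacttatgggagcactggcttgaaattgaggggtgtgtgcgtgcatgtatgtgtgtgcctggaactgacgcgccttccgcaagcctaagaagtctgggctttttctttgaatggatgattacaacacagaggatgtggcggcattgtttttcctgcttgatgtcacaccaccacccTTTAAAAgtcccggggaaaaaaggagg

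The 3 osteocyte genes each held TTTAAAA, a string that 5.4% of all 32851 promoters of this length hold, and none of the other 5 members with a sequence did. This string was chosen after the sequences were seen. The RUNX core occurred in 2 of the 8 members, Enpp1 and Slc20a1, against 14% of all promoters, and the GC box GGGCGG (both strands) in 5 of 8 against 32.7%. TATAAA on the gene's strand occurred in none of the 8 and in 7.6% of all promoters. The windows of Ank (81.2% G and C, 49 CpG), Phospho1 (75.6%, 34 CpG), Slc20a1 (75.2%, 29 CpG), Alpl (68.4%, 20 CpG) and Enpp1 (61.2%, 17 CpG) were rich in CpG. Those of Sost (61.2%, 6 CpG), Fgf23 (48.4%, 6 CpG) and Phex (39.2%, 4 CpG) were not, with medians of 52.4% and 6 CpG over all promoters. A match is only a match of letters and says nothing of a factor's binding.

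Among the genes that supply phosphate, Alpl was highest in osteoblasts, at 662, 605, 676 and 633 CPM (644 ± 31.3, SD, n = 4 libraries). Alpl (chr4:137741733-137796384 on GRCm38, GENCODE vM21) was lower in the type labelled CP1 at 538 ± 24.7 CPM and lower again in the hypertrophic chondrocyte/osteoblast type at 388 ± 8.77 CPM, and the libraries of these 3 types did not overlap. CP1 carries a chondrocyte progenitor label. Its 6 chondrocyte markers summed to 1217 CPM, below osteoblasts (1302 CPM), through Col2a1 alone (699 against 1043 CPM). Acan (191 against 47.4 CPM), Col9a1 (244 against 148 CPM), Sox9, Hapln1 and Matn1 were higher in CP1. Its 7 osteoblast markers summed to 15564 CPM, above the 5 other CP types (5556 to 9368 CPM), and Runx2 alone gave 8806 CPM. Sp7, Col1a1, Spp1 and, narrowly, Bglap were also highest in CP1 among CP types, but Ibsp and Dmp1 were not. With markers of both kinds, the name is used only as a label. Matured chondrocytes overlapped with the hypertrophic chondrocyte/osteoblast type, at 246, 216, 364 and 395 CPM. In matured osteoblasts/osteocytes, Alpl was at 224, 212, 190 and 192 CPM, below osteoblasts in all 4 libraries and 2.11 times the level in osteoclasts (97.0 ± 13.5 CPM). The lowest type, CP3, was at 82.4 CPM, 0.849 of the osteoclast level, so its Alpl was no more than the free RNA reference. Osteoblasts held 42.5% of the annotated Alpl UMIs and matured osteoblasts/osteocytes 1.9%, beside 19.1% and 2.9% of the nuclei. After thinning every nucleus to 2000 UMIs, which left out 125 osteoblast, 37 matured and 37 osteoclast nuclei, 62.4% of osteoblasts, 26.9% of matured osteoblasts/osteocytes and 14.4% of osteoclasts were expected to show an Alpl UMI. The shares before thinning were 82.4%, 46.5% and 32.3%, at median depths of 4715, 4610.5 and 5788 UMIs.

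Phospho1 (chr11:95824499-95832140), the matrix vesicle phosphatase, was detected at a low level, and only in osteoblasts and matured osteoblasts/osteocytes did all 4 libraries lie above all osteoclast libraries. Osteoblasts held 144 of its UMIs, at 4.93, 3.07, 4.44 and 6.13 CPM (4.64 ± 1.27). Matured osteoblasts/osteocytes held 23, at 3.36, 3.86, 6.29 and 7.46 CPM (5.24 ± 1.95), or 5.12 CPM over the pooled libraries with an exact Poisson interval of 3.25 to 7.69, which covers counting error only. These types overlapped, whereas the osteoclast level was 0.969 ± 0.676 CPM and that of the hypertrophic chondrocyte/osteoblast type 0.626 ± 0.219 CPM. Unlike Alpl, Phospho1 was therefore not lower in the matured type, within what 23 UMIs can show. Phospho1 overlaps Zfp652 on its own strand and Abi3 on the other.

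Both genes that put pyrophosphate outside the cell were highest in matured osteoblasts/osteocytes. Enpp1 (chr10:24637914-24712159) stood there at 316, 282, 226 and 341 CPM (291 ± 49.5), which overlapped with the hypertrophic chondrocyte/osteoblast type at 246, 188, 238 and 187 CPM (215 ± 31.8). Osteoblasts were lower than both, at 62.1 ± 7.13 CPM, 1.97 times the osteoclast level of 31.6 CPM. Matured chondrocytes ranged widely, from 38.8 to 240 CPM. The hypertrophic chondrocyte/osteoblast type held 35.1% of the annotated Enpp1 UMIs and 13.3% of all UMIs, and the smaller matured type held 10.7% and 2.9%.

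Ank (chr15:27466677-27594909) was at 1434, 1076, 1068 and 868 CPM in matured osteoblasts/osteocytes (1111 ± 236). Osteoclasts came next at 732, 906, 776 and 783 CPM (799 ± 74.9), and the highest of these exceeded the lowest matured library, so osteoclasts are no free RNA reference for this gene. The hypertrophic chondrocyte/osteoblast type followed at 689 ± 36.8 CPM and osteoblasts at 211 ± 12.2 CPM, and neither overlapped with the type above it. Single nuclei carried up to 194 Ank UMIs in the hypertrophic chondrocyte/osteoblast type and 177 in the matured type. Ank overlaps Tiaf2, B230362B09Rik and Mir7117 on the same strand and Otulin on the other. Otulin was also the gene whose levels over the 15 types were most like those of Ank (Pearson's r = 0.978). Whether reads of the 2 genes are fully apart was not tested.

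**Figure D1:**
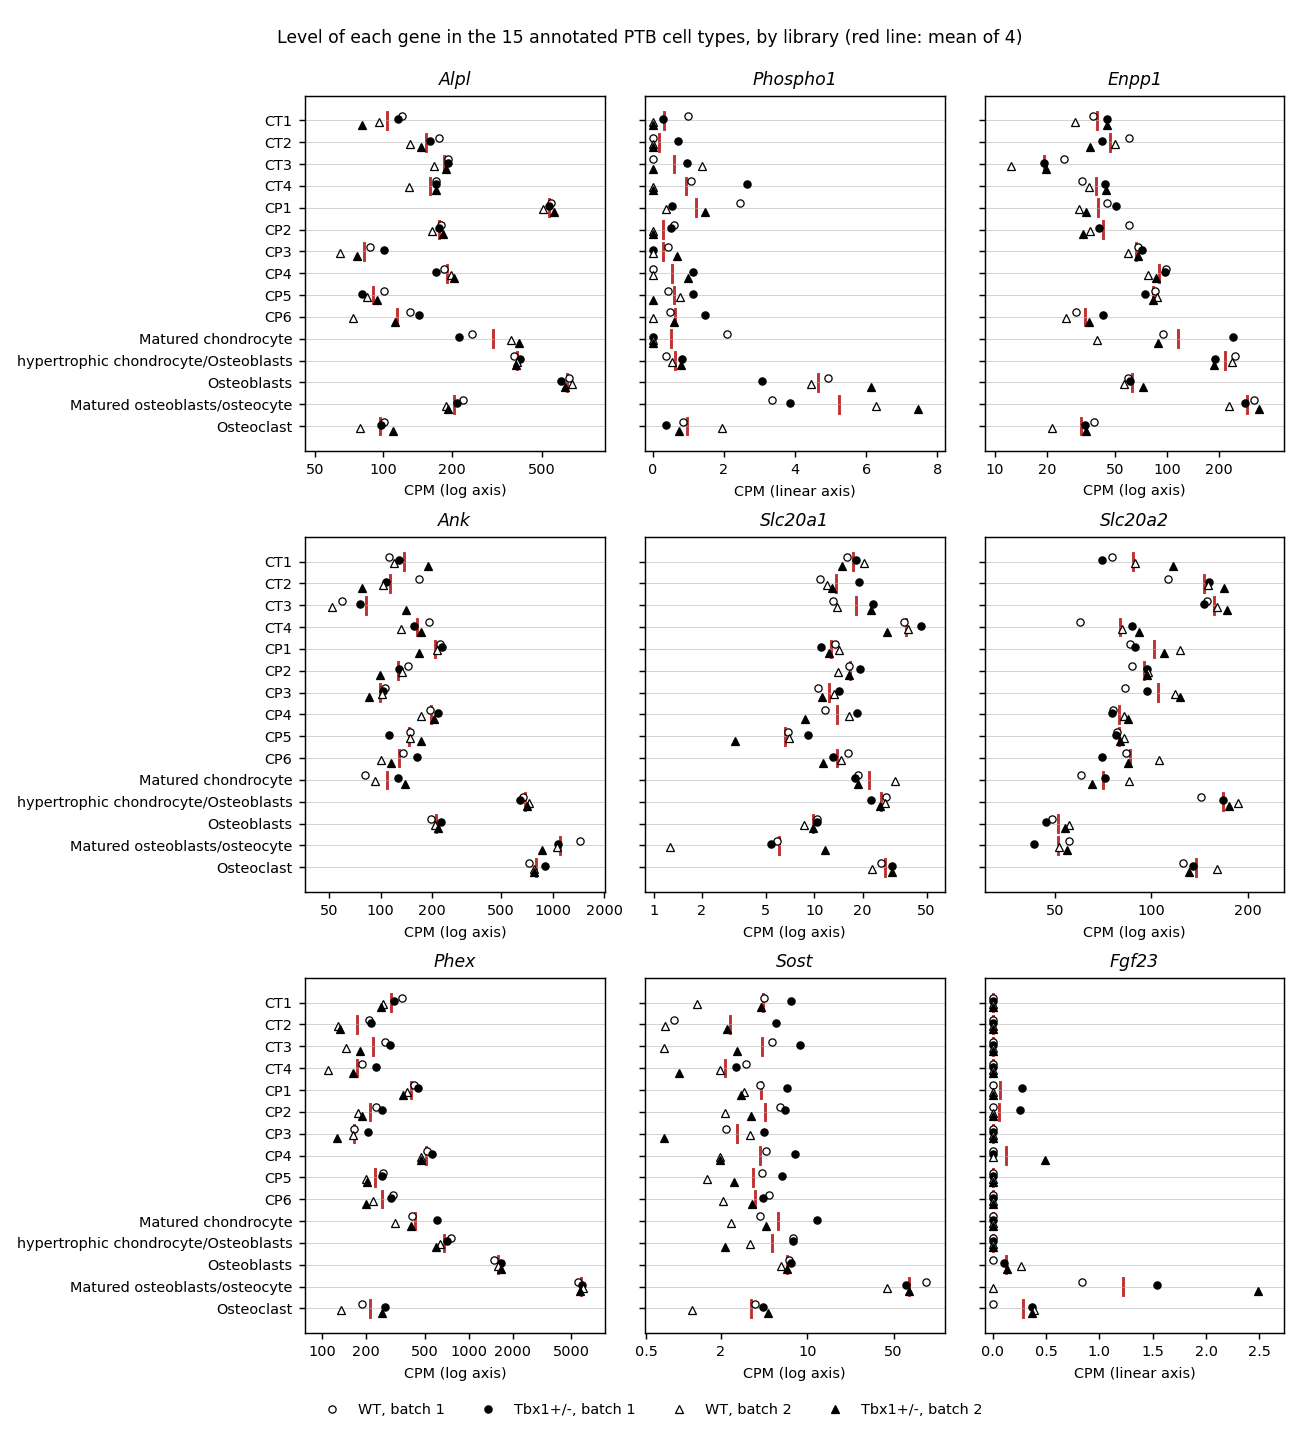
Level of each gene in CPM (horizontal; log axes, but linear for Phospho1 and Fgf23) in the 15 annotated PTB cell types, with 1 point per library (open: WT, filled: Tbx1+/-; circles: batch 1, triangles: batch 2) and a red line at the mean of 4. Alpl peaks in osteoblasts at 644 CPM, whereas Enpp1, Ank, Phex and Sost have their highest means in matured osteoblasts/osteocytes at 291, 1111, 5817 and 66.3 CPM.

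The opposed pyrophosphate genes were set against each other as a ratio within each library. Osteoblasts held 11.2, 9.96, 12.0 and 8.75 Alpl UMIs for each Enpp1 UMI (10.5 ± 1.44). Matured osteoblasts/osteocytes held 0.710, 0.753, 0.839 and 0.564 (0.717 ± 0.115), below every library of every other type. CP1 had the highest mean, 14.1 ± 3.03, and overlapped with osteoblasts, while the hypertrophic chondrocyte/osteoblast type had 1.84 ± 0.301. The ratio in osteoclasts was 3.14 ± 0.440. Because the genes differ in length, the ratio is compared between types only, and a ratio of 1 is not a point of equal level.

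**Figure D2:**
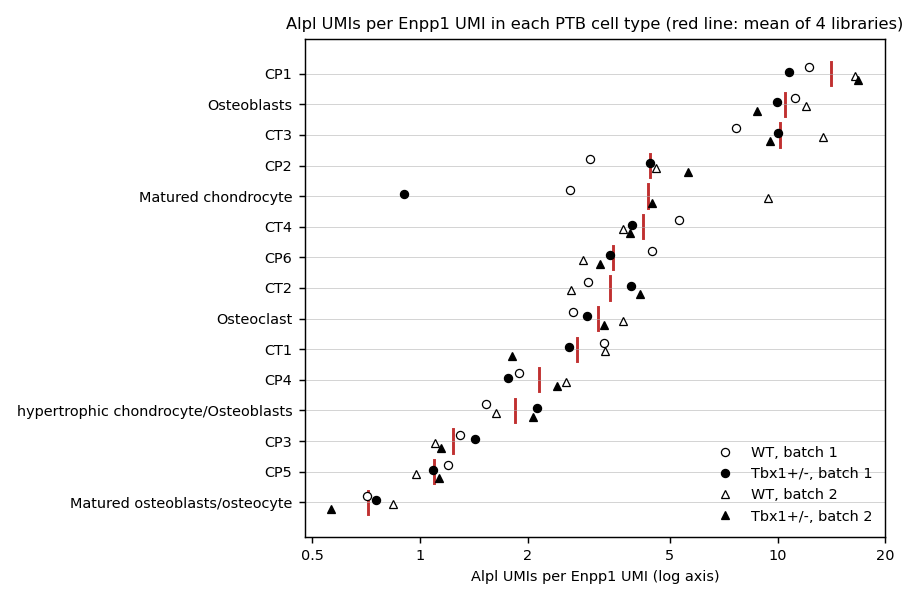
Alpl UMIs per Enpp1 UMI (horizontal, log axis) in each PTB cell type, 1 point per library and a red line at the mean of 4, with types ordered by mean. CP1 (14.1) and osteoblasts (10.5) lie at the high end and all 4 libraries of matured osteoblasts/osteocytes, at 0.564 to 0.839, at the low end.

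The phosphate transporters were lower in osteoblasts and matured osteoblasts/osteocytes than in several other types. Slc20a1 (chr2:129198764-129211616) was at 36.4, 46.2, 38.1 and 28.5 CPM in the type labelled CT4 (37.3 ± 7.26), which overlapped with osteoclasts at 27.5 ± 3.77 CPM, and at 25.9 ± 2.51 CPM in the hypertrophic chondrocyte/osteoblast type. The authors name CT types as connective tissue, but the 4 connective tissue markers summed to 786 CPM in CT4 against 4109 CPM in CT1, and to less only in matured osteoblasts/osteocytes and osteoclasts. The 6 osteoclast markers summed to 2099 CPM in CT4 and to 747 to 1163 CPM in the other types outside osteoclasts. Of these 6, Mmp9 alone was at 1411 CPM, above its 1116 CPM in osteoclasts, while Ctsk (423 against 4606 CPM) and Atp6v0d2 (25.2 against 2500 CPM) were far below. Osteoblasts were lower at 9.81 ± 0.852 CPM, and matured osteoblasts/osteocytes had 5.88, 5.40, 1.26 and 11.6 CPM from 29 UMIs in all. Slc20a2 (chr8:22476788-22569612) was at 143, 168, 186 and 175 CPM in the hypertrophic chondrocyte/osteoblast type (168 ± 18.2). CT3 (157 CPM), CT2 (146 CPM) and osteoclasts (138 CPM) overlapped with it, so no leading type stood apart. Osteoblasts (51.3 ± 4.0 CPM) and matured osteoblasts/osteocytes (51.2 ± 5.60 CPM) were below it in every library. Antisense genes overlap Slc20a1 (Gm4430 and 9830144P21Rik), and Gm17491 (same strand) and Smim19 (other strand) overlap Slc20a2.

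Phex (chrX:157162075-157415312), which is mutated in X-linked hypophosphataemia, had its 4 highest means in types that did not overlap with each other. Matured osteoblasts/osteocytes were at 5558, 5932, 6039 and 5738 CPM (5817 ± 213), osteoblasts at 1482, 1668, 1577 and 1661 CPM (1597 ± 87.1) and the hypertrophic chondrocyte/osteoblast type at 754, 708, 642 and 597 CPM (675 ± 69.6). CP4 followed at 509 CPM. Matured osteoblasts/osteocytes stood 27.4 times and osteoblasts 7.52 times above osteoclasts (212 ± 62.4 CPM). After thinning to 2000 UMIs, 98.7% of matured osteoblast/osteocyte nuclei, 77.6% of osteoblasts and 23.9% of osteoclasts were expected to hold a Phex UMI, against 99.4%, 88.8% and 46.8% before thinning. The 900 matured nuclei, 2.9% of those annotated, held 22.1% of the Phex UMIs. Gm25795 and Gm15172 overlap Phex on its strand and Gm23798 on the other.

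Sost (chr11:101962458-101967015) was at 92.4, 62.5, 44.0 and 66.3 CPM in matured osteoblasts/osteocytes (66.3 ± 19.9). The next type, osteoblasts, was at 7.19, 7.46, 6.13 and 6.91 CPM (6.92 ± 0.570), with no overlap. The other 13 types had means of 2.18 to 5.81 CPM, near the osteoclast level of 3.53 ± 1.64 CPM. In the matured type 163 of 900 nuclei (18.1%) carried at least 1 Sost UMI, and 34 nuclei with 3 or more held 138 of the 306 UMIs (45.1%), with up to 11 in a nucleus. Thinned shares were 10.7% in the matured type, 1.20% in osteoblasts and 0.795% in osteoclasts, from 17.9%, 2.89% and 1.93% before thinning as means of libraries. The share of UMIs in nuclei with 3 or more was 52.7%, 38.3%, 17.1% and 53.8% in the 4 libraries, the third from only 2 nuclei. At this depth a nucleus without a Sost UMI cannot be taken as one that does not express the gene.

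Within the matured type, nuclei with and without a Sost UMI were compared in each library as a description. Phex was higher with Sost in 4 of 4 libraries (6677 against 5612 CPM on average), as was Ibsp, the bone sialoprotein gene (7847 against 5509 CPM). Ank was lower with Sost in 4 of 4 libraries (680 against 1213 CPM), as was Spp1, which encodes osteopontin (1376 against 2264 CPM). The osteocyte markers of the type showed no such agreement, with Dmp1 lower with Sost in 3 of 4 libraries (1541 against 1817 CPM), Mepe higher in 1 of 4 (199 against 189 CPM) and Pdpn higher in 2 of 4 (202 against 191 CPM). Enpp1 was at 292 CPM with and 291 CPM without Sost, and Alpl at 218 and 200 CPM, each higher with Sost in 2 of 4 libraries. Ibsp and Spp1 were chosen after their values were seen. Both gaps were widest in WT batch 1 (Ibsp 14992 against 9916 CPM, Spp1 2040 against 4555 CPM). In WT batch 2 that of Spp1 was 1029 against 1115 CPM, and in Tbx1+/- batch 2 that of Ank was 837 against 875 CPM. How many of all genes had the same sign in 4 of 4 libraries was not counted. Median depths were 4811 UMIs with and 4492 UMIs without Sost, and the part of depth in these differences was not tested.

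Fgf23 (chr6:127072902-127081408) was near the limit of detection. Matured osteoblasts/osteocytes gave 6 UMIs in 4 nuclei, at 0.840, 1.54, 0 and 2.49 CPM, or 1.34 CPM pooled with an exact Poisson interval of 0.491 to 2.91. Osteoblasts gave 4 UMIs and osteoclasts 3, at pooled levels of 0.127 and 0.288 CPM with overlapping intervals of 0.0345 to 0.325 and 0.0594 to 0.842. The hypertrophic chondrocyte/osteoblast type gave 0, which allows up to 0.147 CPM. The pooled interval of the matured type lay above that of osteoblasts but overlapped with that of osteoclasts, so it is not separated from the reference at this depth. A further 31 PTB UMIs lay in 25 barcodes without a cell type name.

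The step from osteoblasts to matured osteoblasts/osteocytes, taken within each library, placed the 9 genes among others of their pathways. Of the 8 members with at least 20 UMIs in each type, 4 were higher in the matured type in every library and Alpl was lower in every library. Of all 12074 genes with as many UMIs, 15% were higher and 27.7% lower in every library. The mean step was 3.21 ± 0.36 for Sost (log2, SD, n = 4), 2.37 ± 0.37 for Ank, 2.22 ± 0.17 for Enpp1 and 1.87 ± 0.07 for Phex, and -1.66 ± 0.15 for Alpl. Slc20a2 (-0.00 ± 0.14), Phospho1 (0.14 ± 0.47) and Slc20a1 (-1.08 ± 1.25) had mixed signs. These steps carry no test, because the types were named by clustering the same nuclei.

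Among 11 further osteocyte genes, 9 were higher in every library and Kcnk2 was lower in every library. Ptprz1, a receptor tyrosine phosphatase gene, led at 3.68 ± 0.14, with Dmp1 at 2.93 ± 0.13. Of 9 phosphate and pyrophosphate genes with enough UMIs, 5 were higher in every library, among them Nt5e (1.56 ± 0.12), whose product turns AMP into adenosine and phosphate, and 1 was lower in every library. That gene was Smpd3, the sphingomyelinase gene needed for bone mineralisation, which went the way of Alpl, by -1.58 ± 0.14, from 2952 CPM in osteoblasts to 990 CPM. Of 6 genes of the FGF23 and vitamin D axis, 4 were higher in every library. They included Fam20c (2.00 ± 0.09), whose kinase phosphorylates FGF23 and other secreted proteins, and Galnt3 (0.72 ± 0.12), whose enzyme protects FGF23 from cleavage. Pth1r was lower in every library (-0.21 ± 0.18).

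The phosphate exporter gene Xpr1 was also higher in the matured type than in osteoblasts in every library (0.45 ± 0.20), but it was highest in osteoclasts at 2328 CPM. Klotho (Kl), the co-receptor for FGF23, was at most at 16.2 CPM in CP3. The renal and intestinal phosphate transporters were nearly silent in annotated PTB nuclei, with 0 UMIs of Slc34a1, 35 of Slc34a2 and 4 of Slc34a3. The vitamin D enzymes Cyp27b1 and Cyp24a1 gave 23 and 12 UMIs.

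**Figure D3:**
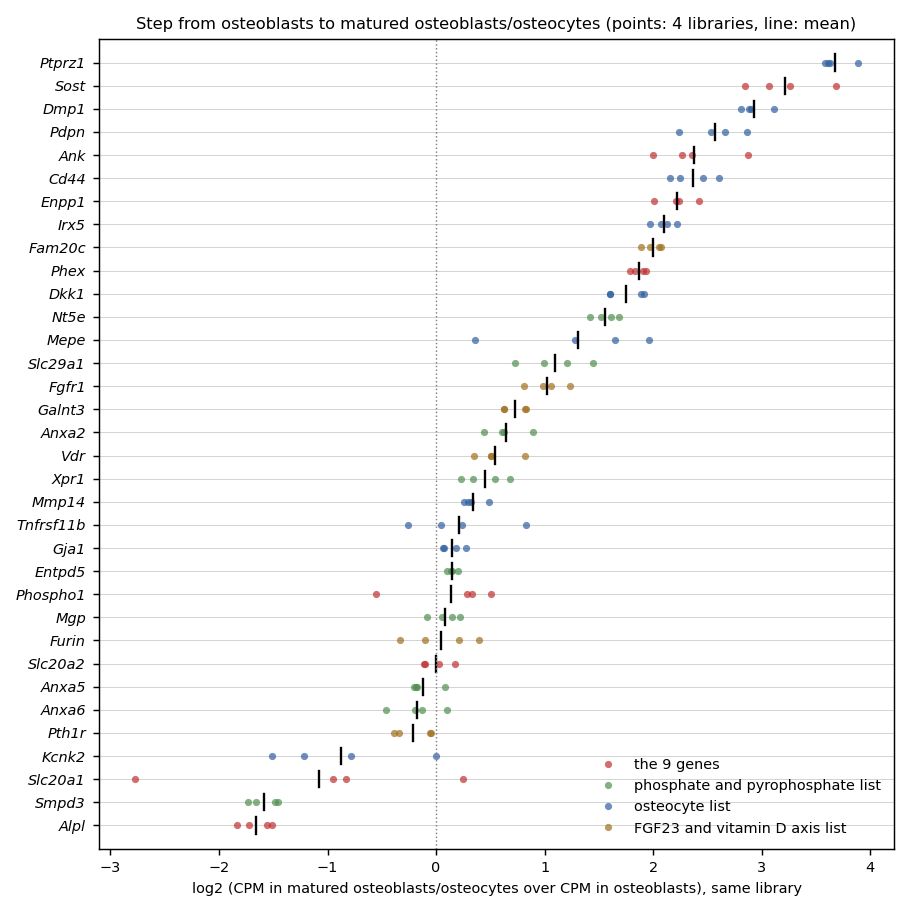
Difference between matured osteoblasts/osteocytes and osteoblasts (log2 of the CPM ratio in the same library), with 1 point per library, a black line at the mean of 4 and colours for the 9 genes and the 3 pathway lists. Sost, Ank, Enpp1 and Phex lie to the right at 3.21, 2.37, 2.22 and 1.87, and Alpl lies at the far left at -1.66.

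As a description of likeness, log2(CPM + 1) of each member was correlated with that of 10670 genes over the 15 types, whose values share libraries and free RNA. Phex was most like Rhbdl2 (Pearson's r = 0.972), Ccn4 (0.966) and Farp2 (0.964), and Sost most like Ptprz1 (0.957), Ccdc194 (0.942) and Dmp1 (0.935). Enpp1 was most like Fam20c (0.884), Tcf7l2 (0.843) and Epas1 (0.821). For Alpl the nearest were Fzd5 (0.911), Dapk2 (0.902) and Zfp207 (0.897), and for Ank, after Otulin, Acvr2b (0.919) and Nol4 (0.917). Nearest to Slc20a1 were Pfn1 (0.867), Cep83 (0.867) and Fgfr1op2 (0.863), and nearest to Slc20a2 were Herc6 (0.852), Rhbdd2 (0.837) and Hat1 (0.836). Among members, Phex and Sost were most alike (0.906), Enpp1 and Phex came to 0.708, and the opposed enzymes Alpl and Enpp1 to 0.275.

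Whether loss of 1 Tbx1 copy changed these genes was asked in each of the 15 types and in all annotated nuclei, with edgeR's quasi-likelihood test on library sums. No member passed an adjusted p of 0.05 with a change over 1.5-fold in any of the 16 fits, and the background was the same: 0 of 7719 to 20250 genes tested per fit, or 0%, were called. DESeq2 called none either. Neither fit held the batch as a term. With the batches as a replicate block, edgeR called 71 genes and 2 members over the 16 fits. Each member was 1 of 22 genes called among 10876 tested in CT3 or 1 of 18 among 7719 in matured chondrocytes. Without this block, an unadjusted edgeR p under 0.05 was reached by 6 of 97 member tests over the types (6.19%) and 3384 of 187198 gene tests (1.81%). Tests of a gene in several types share libraries and are not independent, and every one of the 6 had an adjusted p near 1.00.

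Of these 6, 1 lay in the 3 osteogenic types, that of Enpp1. In the hypertrophic chondrocyte/osteoblast type it was at 246 and 238 CPM in WT and at 188 and 187 CPM in Tbx1+/- libraries (log2 change -0.38, SE 0.11, edgeR unadjusted p = 0.0089, adjusted p = 1.00). In osteoblasts the change was 0.20 (SE 0.14) and in matured osteoblasts/osteocytes 0.16 (SE 0.22). The difference between types was tested over the 3 osteogenic types with the library as a block. The change in the hypertrophic chondrocyte/osteoblast type minus that in osteoblasts was -0.54. The edgeR test of both interaction terms gave an unadjusted p of 9.76e-05, but an adjusted p of 0.142. Of 16008 genes tested, 3 (0.0187%) had an adjusted p under 0.05. Without the 8% of nuclei with most UMIs, the difference was -0.29 (edgeR adjusted p = 1.00), as the change in osteoblasts went to -0.067 and that in the hypertrophic chondrocyte/osteoblast type stayed at -0.39. With 1 library left out it was -0.40 to -0.70, with an edgeR adjusted p of 0.0319 without WT batch 1, 0.0326 without Tbx1+/- batch 1, 0.430 without WT batch 2 and 1.00 without Tbx1+/- batch 2. The sum of the 5 hypertrophic markers in this type was 10969.5, 5036, 5837 and 6629 CPM, with none at 0. It was lower in Tbx1+/- in batch 1 and higher in batch 2, whereas Enpp1 was lower in both. Spp1 (4827 CPM) and Mmp13 (1923 CPM) made up most of this sum on average. The part of these markers in the Enpp1 change was not tested.

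The other osteogenic values were not called either. The log2 change of Alpl was -0.12 (SE 0.11) in osteoblasts and -0.07 in matured osteoblasts/osteocytes, and that of Phex was -0.03 in the matured type and -0.11 in the hypertrophic chondrocyte/osteoblast type. That of Ank in matured osteoblasts/osteocytes was -0.40 (SE 0.21, edgeR unadjusted p = 0.089, adjusted p = 1.00), a value as large as that of Enpp1 above. Its change there minus that in osteoblasts was -0.49, and the same edgeR interaction test gave an unadjusted p of 0.0028 and an adjusted p of 0.940. Without the 8% of nuclei with most UMIs this difference was -0.15 (edgeR adjusted p = 1.00), without WT batch 1 it was -0.23 (edgeR adjusted p = 0.958), and without WT batch 2 it was -0.71 (edgeR adjusted p = 0.0025). Sost in the matured type was at 92.4 and 44.0 CPM in WT and at 62.5 and 66.3 CPM in Tbx1+/-, between the WT libraries (-0.16, SE 0.30). Alpl UMIs per Enpp1 UMI went from 1.58 to 2.10 in the hypertrophic chondrocyte/osteoblast type (higher in Tbx1+/- by 0.47 and 0.34 on the log2 scale in the 2 batches, exact permutation p = 0.333, adjusted p = 0.50). In osteoblasts they went from 11.6 to 9.34 (-0.17 and -0.46 in the batches, exact permutation p = 0.333, adjusted p = 0.50). In matured osteoblasts/osteocytes they went from 0.772 to 0.652, but the batches had opposite signs (0.085 and -0.57, exact permutation p = 0.667). With 2 libraries against 2, no exact two-sided p can fall below 0.333.

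Outside the osteogenic types, 3 values passed only in other fits, those of Ank in CT3, Enpp1 in matured chondrocytes and Phex in osteoclasts. Ank in the type labelled CT3 was at 60.0, 76.3, 51.9 and 140 CPM (log2 change 0.94, edgeR adjusted p = 1.00). With the batches as a replicate block it was called (0.93, edgeR adjusted p = 0.0197), as it was without the filter on low counts (0.96, adjusted p = 0.0371). It was also called without WT batch 1 (1.04), a fit with 1 WT library left. Its size rested on the Tbx1+/- library of batch 2, without which it was 0.43, and on the nuclei with most UMIs, without which it was 0.51, and 1 nucleus held 36 Ank UMIs. Slc20a1 in CT3 was at 13.0 and 13.9 CPM in WT and 23.2 and 22.6 CPM in Tbx1+/- (0.74, edgeR unadjusted p = 0.045, adjusted p = 1.00), from 84 UMIs.

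Enpp1 in matured chondrocytes was at 93.9, 240, 38.8 and 88.8 CPM (1.08, edgeR adjusted p = 1.00). It too was called under the block (1.29, adjusted p = 0.0153). The Tbx1+/- library of batch 1 had only 48 such nuclei, and without it the change was 0.42. Without WT batch 1 it was called at 1.88, and without Tbx1+/- batch 2 at 1.84, in fits with 1 library left in a genotype. Without WT batch 2 it was 0.59 and not called, so its size depended on each of the 4 libraries. The sum of 5 erythroid markers in this type was 1039 and 13308 CPM in the WT libraries and 929 and 1195 CPM in Tbx1+/-, with none at 0. The WT library with the most erythroid RNA, that of batch 2, was also the one with the least Enpp1, and it had the lowest sum of the 6 chondrocyte markers (4510 CPM, and 7504 to 11391 CPM in the other three). The change without it is the 0.59 given above. The 4 muscle markers, none at 0, summed to 298, 671, 77.7 and 46.7 CPM, highest in Tbx1+/- batch 1, the library with the most Enpp1, without which the change is the 0.42 above. The part of erythroid, muscle or chondrocyte RNA in the Enpp1 change was not tested. Ank in the same type was at 81.4, 126, 92.2 and 139 CPM (0.65, edgeR unadjusted p = 0.040, adjusted p = 1.00).

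Phex in osteoclasts was at 188, 268, 135 and 257 CPM, higher in Tbx1+/- in each batch (0.69, edgeR unadjusted p = 0.0062, adjusted p = 1.00, and 0.0744 under the replicate block). Without WT batch 1 it was called, at 0.95, and without WT batch 2 it was 0.46 and not called. Either fit left 1 WT library, which was assumed to vary like the Tbx1+/- libraries. These levels were 34.1%, 43.7%, 27.7% and 47.3% of those over all barcodes of the same library. For Alpl, likewise a gene osteoclasts should lack, these shares were 40.0%, 39.6%, 34.6% and 44.9%, and for Dmp1 48.4%, 57.1%, 41.2% and 59.3%. Those of Sost, Col1a1, Bglap, Ibsp, Spp1, Runx2 and Sp7 were higher in Tbx1+/- in each batch, as for Phex and Dmp1. That of Alpl was higher in batch 2 only. The sum of the 7 osteoblast markers in osteoclasts, none at 0, was 6149 and 3971 CPM in WT and 6183 and 5301 CPM in Tbx1+/-, and the part of free RNA in the Phex difference was not tested.

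Over all annotated nuclei Phex was at 697, 865, 722 and 799 CPM, higher in Tbx1+/- in both batches (0.23, edgeR unadjusted p = 0.055). With the types held at fixed weights the levels were 742, 798, 719 and 726 CPM, a difference of 0.06 (exact permutation p = 0.667). The same test without fixed weights gave an exact permutation p of 0.333, the smallest it allows, so its p is not comparable with that of edgeR. Matured osteoblast/osteocyte nuclei numbered 256, 287, 146 and 211 and osteoblast nuclei 1456, 1865, 1198 and 1294. Annotated nuclei numbered 9977, 8704, 5981 and 6414 in all, and the part of the makeup of types was not tested. Sost was higher in both libraries of batch 1, at 7.61 and 8.58 CPM, than in those of batch 2, at 4.06 and 5.92 CPM, also at fixed weights (7.86 and 8.39 against 4.19 and 5.48 CPM).

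**Figure D4:**
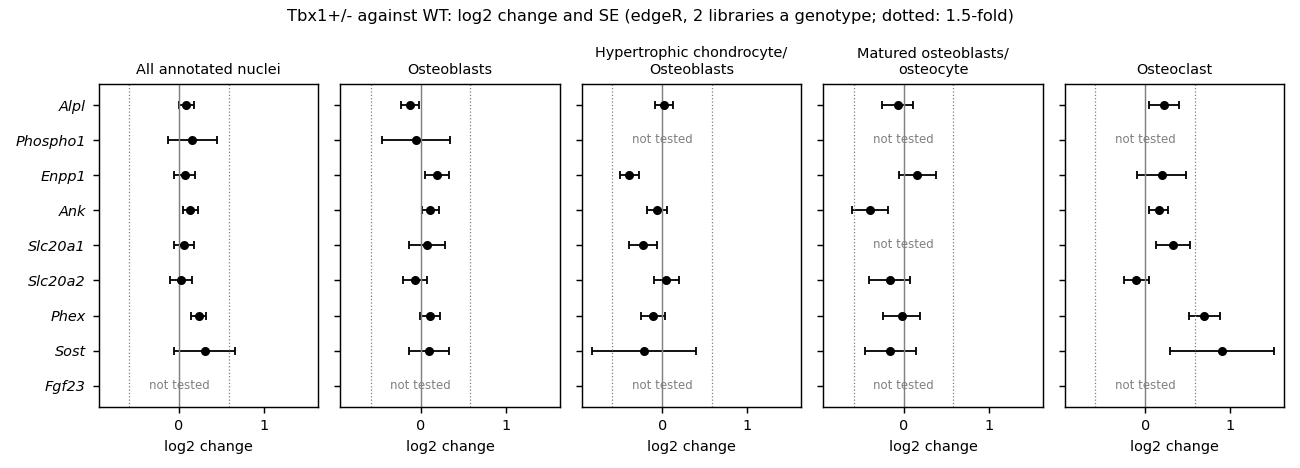
Change in Tbx1+/- against WT (log2, edgeR, points with bars of 1 SE, 2 libraries a genotype) of each gene in all annotated nuclei and in 4 PTB cell types. The dotted lines mark 1.5-fold, genes under the filter on low counts are marked as not tested, and Enpp1 in the hypertrophic chondrocyte/osteoblast type (-0.38) and Phex in osteoclasts (0.69) lie farthest from 0 for their SE, with no point called.

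The tissues were then compared over all barcodes of the 8 libraries, with genotype as a term. Of 23420 genes tested, 58.4% were called, 29.6% higher and 28.8% lower in the PTB, and 7 of the 9 members were called, 6 of them higher in the PTB. Sums over a tissue cannot tell fewer cells of a type from less RNA per cell, and tissue cannot be told apart from the way its nuclei were isolated. Alpl was at 252, 247, 227 and 247 CPM in the PTB and at 2.14 CPM on average in the PF/F (log2 difference 6.79, SE 0.13, edgeR adjusted p = 1.60e-08). Phex (550 against 13.8 CPM, 5.28, adjusted p = 1.99e-08) and Sost (6.06 against 0.156 CPM, 5.22, adjusted p = 5.11e-06) also differed. The pyrophosphate genes differed less, with Enpp1 at 65.6 against 6.74 CPM (3.24) and Ank at 253 against 75.4 CPM (1.71). Phospho1 had 344 UMIs in the PTB and 0 in the PF/F, at least 79.3-fold more against a floor of 3 counts over the 4 PF/F libraries together.

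Slc20a1 and Slc20a2, which serve many cell types, were not called. Slc20a1 was lower in the PTB (18.0 against 24.2 CPM, -0.46, edgeR adjusted p = 4.60e-04), under 1.5-fold, and Slc20a2 was at 91.3 against 86.1 CPM (0.04, adjusted p = 0.617). In the PF/F annotation, Slc20a1 was highest in Purkinje cells at 47.6 ± 3.17 CPM, and Enpp1 in meningeal cells at 106 ± 39.2 CPM.

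Fgf23 was the 1 member called as higher in the PF/F, with 45, 46, 52 and 62 UMIs there against 7, 10, 8 and 22 in the PTB (0.995 against 0.164 CPM, log2 difference -2.69, edgeR adjusted p = 1.71e-04). The libraries did not overlap. Of 205 PF/F UMIs, 81 lay in differentiated granule neurons, in 81 nuclei, and Purkinje cells had 21, at 2.28 ± 0.881 CPM. Such counts also follow the size of each type. A tissue by genotype term in the edgeR fit called 0 of 23420 genes (0%), and 175 reached an unadjusted p under 0.05, none of them a member. In the pathway lists, 11 of the 13 phosphate and pyrophosphate genes tested were higher in the PTB and 0 lower. Mgp (6.16), which encodes a mineralisation inhibitor, had the highest difference of these, and the annexin genes Anxa5 (4.11), Anxa2 (3.96) and Anxa6 (2.17) and Smpd3 (2.97) followed with Slc34a3 (3.38) and Slc34a2 (2.97). Enpp3 (1.92), Abcc6 (1.56), Nt5e (1.08) and Xpr1 (0.69) were the other four. Of Slc34a3 and Slc34a2, annotated PTB nuclei held only 4 and 35 UMIs. The FGF23 and vitamin D axis had 7 higher and 1 lower (Cyp24a1, -2.48) of 9, with Vdr (7.14), Pth1r (4.83), Galnt3 (3.17), Fam20c (1.78), Fgfr1 (1.67), Furin (1.03) and Kl (0.87) as the higher genes. Osteocyte genes were 9 higher and 2 lower of 11, led by Dmp1 (10.83), Mepe (10.58) and Dkk1 (8.32), with Tnfrsf11b (3.86), Mmp14 (3.81), Cd44 (2.56), Irx5 (2.52), Gja1 (2.50) and Pdpn (1.78). The osteocyte genes lower in the PTB were Kcnk2 (-2.23) and Ptprz1 (-0.62). The median of all genes tested was 0.00.

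**Figure D5:**
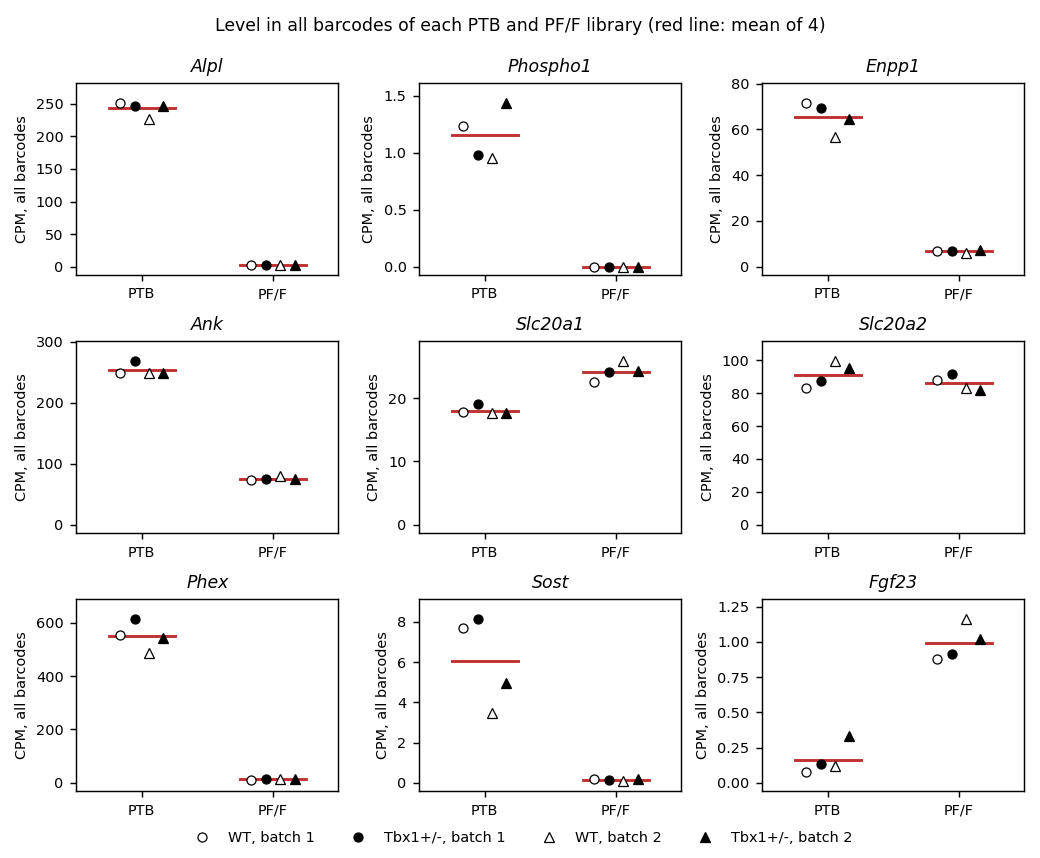
Level of each gene in CPM over all barcodes of the 4 PTB and 4 PF/F libraries, 1 point per library with a red line at the mean. Phospho1, Alpl, Phex, Sost, Enpp1 and Ank lie higher in the PTB, and Slc20a2 overlaps (91.3 and 86.1 CPM on average). Fgf23 lies higher in the PF/F at 0.995 CPM, as does Slc20a1, by under 1.5-fold.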

How the data were processed

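Single-nucleus RNA sequencing (10x Chromium 3′ libraries) gave 8 libraries, and the deposited values are raw UMI counts, which the authors obtained from Cell Ranger 7.0.0 (intron mode, mm10) and which lack their SoupX correction. Cell types are those of the authors' annotation (Louvain clustering, label transfer and curation). The 9 genes and all lists were chosen with earlier results of these data known. UMIs were summed per library and cell type (Python 3.11.15, numpy 2.4.6, scipy 1.17.1, pandas 2.3.3). Genotypes and tissues were compared with edgeR 4.0.16 (filterByExpr, TMM, quasi-likelihood test, R 4.3.3), with Benjamini-Hochberg adjustment over all genes tested in a fit, and DESeq2 1.42.0 as an alternative. The test script was checked on simulated data. A gene was called at an adjusted p under 0.05 and over 1.5-fold. The SE of a change is its size over the square root of F. Levels of types carry no test, since clustering used the same counts. All 9 genes are named, with list genes that were called or among the 3 highest of their list in the osteogenic types, and the 3 genes most like each member that reached 20 CPM in a type. Slc34a1, Cyp27b1, Ibsp and Spp1 were chosen after their values were seen.

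A shared replicate number marks a batch in the paper. Deviations from the genotype means correlated within batches at 0.478 over 20250 PTB genes and 0.550 over 20756 PF/F genes. The fit with this block, RLE factors, no filter on low counts, nuclei with at least 2000 detected genes, leaving out the 8% of nuclei with most UMIs (no doublet caller was run) and leaving out each library were alternatives. Poisson intervals and limits at a count of 0 (3 counts) are at 95% and cover counting error only. Gene coordinates are from GENCODE vM21 on GRCm38 and promoters from RefSeq on GRCm38.p6. No sequence was printed for Slc20a2.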

Additional observations from a re-analysis of the deposited data

How the results depend on the processing

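Over 632 alternative values, the 8 tissue differences with a fitted value (Phospho1 aside) kept their direction and their side of the threshold under every alternative run. Summed over the 16 PTB genotype fits, which called 0 genes and 0 members, no filter on low counts called 96 genes and 1 member and the replicate block called 71 genes and 2 members, both named above, and changed no other call. Without the filter, the type of that 1 member, CT3, had 11 genes called of 21111 tested. RLE factors, DESeq2, nuclei with at least 2000 detected genes and leaving out the 8% of nuclei with most UMIs each called 0. Leaving out 1 library called 29 to 613 genes and 0 to 3 members, most without WT batch 1 (613). The lone library of a genotype was then assumed to vary like the other genotype. No cause was tested. Some small log2 changes, none of them called, changed sign. Enpp1 in all annotated nuclei went from 0.06 to -0.0097 with nuclei of at least 2000 detected genes. Without the 8% of nuclei with most UMIs, Enpp1 in osteoblasts went from 0.20 to -0.067 and Ank from 0.11 to -0.15. At equal weight of each type, the standardised difference of Alpl went from -0.01 to 0.022 and that of Enpp1 from -0.03 to 0.14. The interaction test was repeated without these nuclei and without each library after the data were seen. Without these nuclei, the hypertrophic minus osteoblast difference of Ank went from -0.15 to 0.097. Leaving out 1 library at a time gave these ranges. That difference was -1.40 to 0.34 for Sost. In all annotated nuclei they were -0.075 to 0.23 for Enpp1, -0.14 to 0.41 for Phospho1, -0.11 to 0.17 for Slc20a2 and -0.075 to 0.85 for Sost. In osteoblasts they were -0.64 to 0.38 for Phospho1, -0.076 to 0.21 for Slc20a1, -0.19 to 0.040 for Slc20a2 and -0.030 to 0.21 for Sost. In the hypertrophic chondrocyte/osteoblast type they were -0.12 to 0.024 for Ank, -0.12 to 0.24 for Slc20a2, -0.23 to 0.018 for Phex and -1.40 to 0.54 for Sost. In matured osteoblasts/osteocytes they were -0.18 to 0.049 for Alpl, -0.047 to 0.42 for Enpp1, -0.36 to 0.016 for Slc20a2, -0.091 to 0.043 for Phex and -0.55 to 0.51 for Sost. Depth limits Fgf23 and Phospho1 most. With the filter on low counts, Fgf23 was tested in no PTB type and Phospho1 in osteoblasts only. Without it both were tested in several types, and neither was called.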
